A study of Mus musculus with 6 samples.

Results

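The Sox factors of the neural lineage are 10 mouse genes, Sox1, Sox2, Sox4, Sox5, Sox6, Sox8, Sox9, Sox10, Sox11 and Sox21, chosen by name. All 10 were found by Ensembl gene identifier among the 39179 genes of the count table, and all 10 were among the 13775 genes with enough counts to test. RNA was sequenced from 3 libraries of differentiated neural progenitor cells with stable expression of the G392E variant of neuroserpin (G392E-NS), and from 3 libraries with stable expression of green fluorescent protein (GFP). Neuroserpin is a serine protease inhibitor of neurons, and the G392E variant forms polymers in the dementia FENIB. Libraries are named by group and replicate number. The cells of both groups came from the cerebral cortex of CD1 mouse embryos at E13.5, carried a stably expressed protein, and were differentiated and lysed in flasks. No library of unmodified cells or of cells with normal neuroserpin was analysed here. The labels do not say whether replicates were separate cultures or derivations, so the p-values speak of the spread among these libraries alone, and part or all of it may be technical.

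Sox proteins bind DNA through an HMG box related to that of Sry, usually together with a partner factor, and subfamilies are defined by similarity in that box. In the developing cortex the SoxB1 factors keep progenitors undifferentiated, the SoxB2 factor Sox21 counteracts them, and the SoxC factors switch on genes of immature neurons. The SoxE factors act in glia: Sox9 in the switch to gliogenesis and in astrocytes, and Sox10 with Sox8 in oligodendrocytes. The SoxD factors lack an activation domain of their own and modulate SoxE factors.

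The coding stretch of the HMG box was 207 bases long in each of the 10 genes, and 79 of those bases were the same in all of them. It is shown for 6 members, with each subfamily that the results compare represented. The sequences are from GENCODE M21 transcripts on GRCm38, written 5′ to 3′ on the coding strand, and capitals mark the bases shared by all 10 genes.
Sox2: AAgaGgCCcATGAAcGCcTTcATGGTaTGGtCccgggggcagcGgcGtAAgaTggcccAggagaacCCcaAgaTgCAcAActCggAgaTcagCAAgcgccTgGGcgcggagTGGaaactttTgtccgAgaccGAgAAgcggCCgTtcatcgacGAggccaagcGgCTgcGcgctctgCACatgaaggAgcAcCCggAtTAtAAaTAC
Sox21: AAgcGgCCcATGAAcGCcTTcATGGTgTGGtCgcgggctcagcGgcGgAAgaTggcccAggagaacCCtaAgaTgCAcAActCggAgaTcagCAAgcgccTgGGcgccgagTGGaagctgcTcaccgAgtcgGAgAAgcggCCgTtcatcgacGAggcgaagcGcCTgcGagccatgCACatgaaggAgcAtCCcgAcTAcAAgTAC
Sox4: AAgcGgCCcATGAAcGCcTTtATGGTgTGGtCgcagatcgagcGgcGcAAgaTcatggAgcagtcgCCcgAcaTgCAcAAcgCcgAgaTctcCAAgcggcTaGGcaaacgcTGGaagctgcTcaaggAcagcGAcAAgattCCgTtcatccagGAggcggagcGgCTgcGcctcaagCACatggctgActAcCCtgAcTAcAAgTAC
Sox11: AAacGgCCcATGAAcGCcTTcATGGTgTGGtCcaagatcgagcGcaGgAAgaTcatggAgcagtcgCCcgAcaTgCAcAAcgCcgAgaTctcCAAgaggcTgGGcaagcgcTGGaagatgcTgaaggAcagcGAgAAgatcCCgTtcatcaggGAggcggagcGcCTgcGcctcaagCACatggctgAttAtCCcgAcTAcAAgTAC
Sox6: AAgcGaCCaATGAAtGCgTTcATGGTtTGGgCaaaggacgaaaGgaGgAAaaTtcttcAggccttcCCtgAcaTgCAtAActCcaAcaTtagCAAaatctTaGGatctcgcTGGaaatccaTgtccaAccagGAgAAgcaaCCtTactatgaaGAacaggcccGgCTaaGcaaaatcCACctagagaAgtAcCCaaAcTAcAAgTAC
Sox9: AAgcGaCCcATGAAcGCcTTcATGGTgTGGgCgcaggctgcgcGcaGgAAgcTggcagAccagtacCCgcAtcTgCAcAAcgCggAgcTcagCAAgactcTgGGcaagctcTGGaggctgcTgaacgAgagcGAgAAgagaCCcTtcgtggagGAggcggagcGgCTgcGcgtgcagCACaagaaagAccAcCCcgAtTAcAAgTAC
These stretches lie at chr3:34650545-34650751 on the plus strand for Sox2, chr14:118235405-118235611 on the minus strand for Sox21, chr13:28952638-28952844 on the minus strand for Sox4 and chr12:27342055-27342261 on the minus strand for Sox11, each within 1 exon. In Sox6 (chr7:115486661-115489765, minus strand) and Sox9 (chr11:112782900-112783899, plus strand) the stretch is split over 2 exons, as it is in Sox5, Sox8 and Sox10. Within a subfamily, 6 pairs of genes shared 83.1% to 90.3% of the bases, with 90.3% for Sox1 and Sox2 and again for Sox4 and Sox11. Between subfamilies, 39 pairs shared 53.6% to 87.9%, the highest being Sox2 with Sox21. That is above the 83.1% of Sox5 with Sox6, so no single cut-off of identity in this stretch separates all subfamilies. Each gene with a subfamily partner among the 10 was still nearest to a gene of its own subfamily. No run of 50 bases in the exons of any member occurred in the exons of another of the 20 Sox genes in the table, so a read of that length matches 1 Sox gene only.

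The libraries held 15507487 to 24835835 counts, the lowest being G392E-NS 3 and the highest G392E-NS 2. Over all genes tested, 6.15% were called at an adjusted p of 0.05 (edgeR quasi-likelihood test, Benjamini-Hochberg), 4.79% higher and 1.36% lower in G392E-NS. Of those calls 77.9% were higher, against 56.5% after removal of length and GC trends. The median log2 fold change was -0.0047. Serpini1, the mouse gene of neuroserpin, had 5.72 ± 0.924 CPM (its counts relative to the scaled total of the library) in G392E-NS and 4.69 ± 0.483 CPM in GFP (SD, n = 3 each), a log2 fold change of 0.29 with an edgeR adjusted p of 0.419. Whether the expressed construct is of mouse sequence is not given in the sources used here, so this value does not check the labels. Xist, the X-inactivation transcript, had 1494 ± 345 CPM in G392E-NS and 1.51 ± 0.0831 CPM in GFP, and this difference goes with the groups. A difference in the sex or origin of the cells can thus not be told apart from the expressed protein. The same holds for every other gene compared here.

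Genes listed as markers of neural progenitors and of neurons were both detected, but each sum rests mainly on its highest genes. The summed level of 8 radial glia and progenitor markers was 7433, 9154 and 6721 CPM in G392E-NS and 7075, 5757 and 5964 CPM in GFP. The highest were Slc1a3, at a mean of 3783 CPM in G392E-NS and 2296 CPM in GFP, and Fabp7, at 2657 and 2617 CPM. Slc1a3 is also in the astroglial list given below. The 8 neuron markers summed to 4301, 3410 and 3102 CPM in G392E-NS and 3321, 3519 and 3848 CPM in GFP, with Stmn2 under 1 CPM in every library. The highest was Map2, at a mean of 2631 CPM in G392E-NS and 2750 CPM in GFP. Rbfox3 was at 19.7 and 22.4 CPM and Snap25 at 12.3 and 8.91 CPM. Microglial markers summed to at most 0.351 CPM in any library, with Csf1r and C1qa at 0, and endothelial markers to at most 1.27 CPM, with Cdh5 and Cldn5 at 0. Neural crest and Schwann markers, which bear on Sox10, reached at most 3.52 CPM, with Foxd3 at 0. Mural and fibroblast markers were low but differed, with sums of 2.45, 5.39 and 4.24 CPM in G392E-NS and 0.288, 0.703 and 0.428 CPM in GFP. Of the 2 tested, Twist1 was called higher (edgeR adjusted p 0.00602), at 0 in all GFP libraries, and Dcn and Lum were at 0 throughout. The 4 ependymal markers summed to 21.9, 42.2 and 47.0 CPM in G392E-NS and 17.1, 19.8 and 17.4 CPM in GFP, with Rsph1 called higher (edgeR adjusted p 0.0156), Foxj1 not called (0.0688) and Tmem212 at 0.

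The members covered a wide range of levels. Per kilobase of annotated exon and averaged over the 6 libraries, Sox2 was the highest at 200.1 CPM per kb and Sox10 the lowest at 1.98 CPM per kb. Between them came Sox8 at 152 CPM per kb, Sox4 at 97.6, Sox9 at 87.1, Sox21 at 59.3, Sox6 at 45.4, Sox1 at 8.74, Sox5 at 5.0 and Sox11 at 2.69. The 6 upper genes were separated from the 4 lower ones by a gap that no library bridged: the lowest Sox6 level was 40.7 CPM per kb and the highest Sox1 level 11.8 CPM per kb. Sox1 and Sox5 also did not overlap on this scale. For all other neighbours among the 10 genes the ranges over the 6 libraries overlapped. The gap holds for these 10 genes only. Sox12, outside the 10, lay inside it in every library, at 13.7 to 18.7 CPM per kb. Sox3, also outside the 10, ran from 23.2 to 67.0 CPM per kb. Sox4 was above Sox9 in 3 of 6 libraries, so the order of that pair depends on the library, and Sox11 was above Sox10 in 4 of 6. Sox5 and Sox6 have many alternative exons, and per kilobase of the longest transcript, a scale added after the data were seen, they were at 9.92 and 77.7 CPM per kb. On that scale Sox5 was above Sox1, at 8.74, and Sox6 above Sox21, at 59.3. The order of these pairs, and the separation of Sox1 from Sox5, thus depend on the length used.

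**Figure D1:**
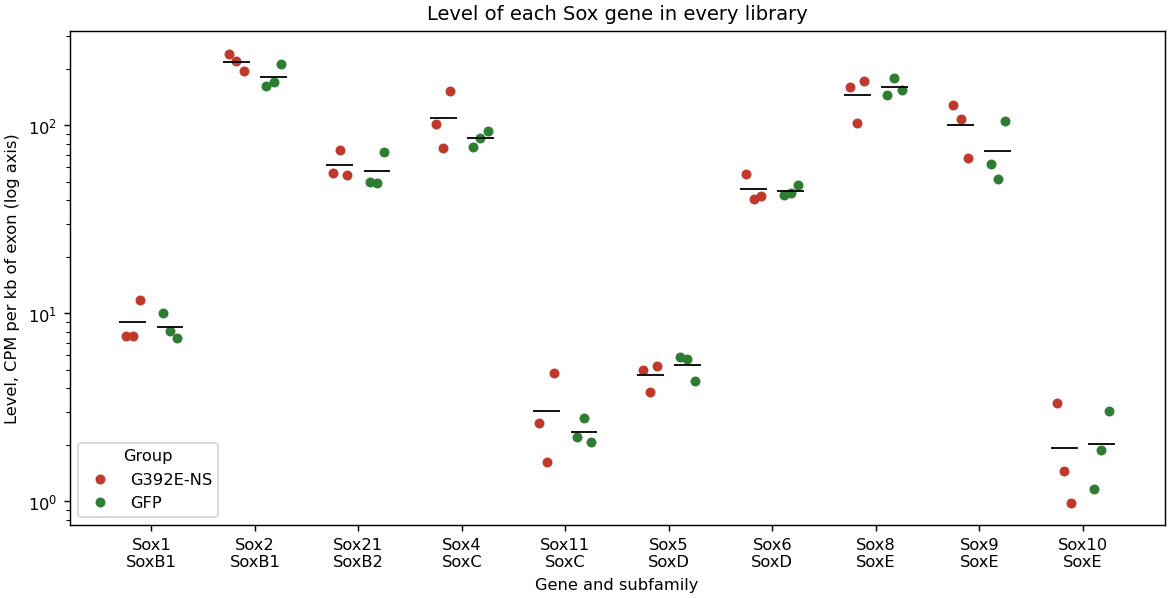
Level of each of the 10 Sox genes in each library, in CPM per kb of exon on a log axis, with G392E-NS left of GFP, points for libraries and bars for means. Sox2 averages 200.1 CPM per kb over the 6 libraries and Sox10 1.98, and in every gene the points of the 2 groups overlap.

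None of the 10 Sox genes was called higher or lower in G392E-NS, where 6.15% of all genes tested were called. None reached an unadjusted p of 0.05 in edgeR, and none had non-overlapping groups, as 28.6% of all genes tested did. The log2 fold change was above 0 in 7 members and below 0 in 3, with a median of 0.09, and adjusted p ran from 0.289 to 0.955 by edgeR's quasi-likelihood test. In DESeq2 and limma-voom, 0 of the 10 were called as well. A p that misses the threshold does not show equal levels, and the 95% intervals give what the data allow. For 7 members the interval lay within a log2 fold change of 1 in either direction, and for Sox9, Sox10 and Sox11 it reached past 1.

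**Figure D2:**
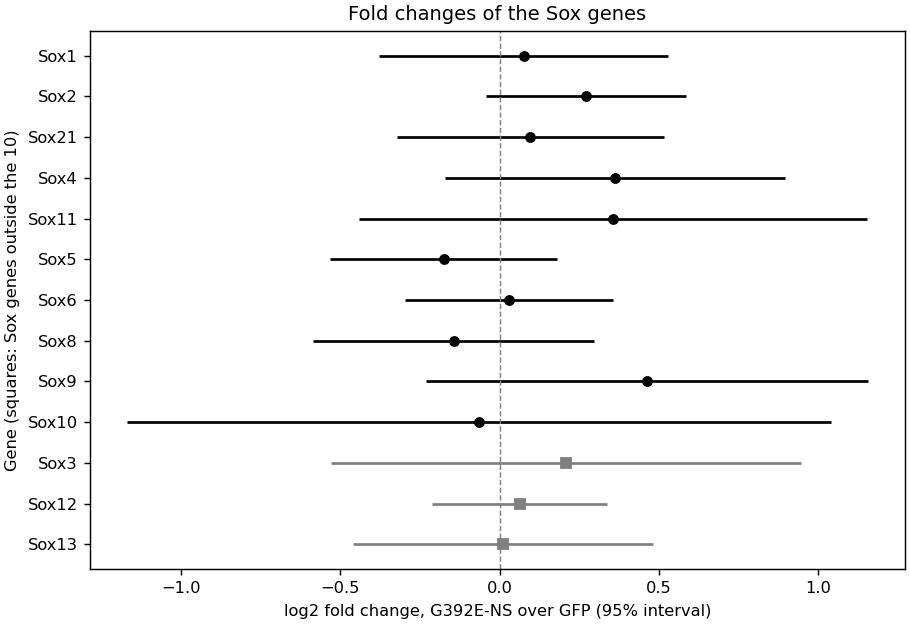
Log2 fold change of G392E-NS over GFP for the 10 Sox genes, with points for estimates and lines for 95% intervals from the edgeR fit. Squares are 3 Sox genes outside the 10; every interval includes 0, and the widest, that of Sox10, runs from -1.17 to 1.04.

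Among the SoxB1 factors, Sox2, the core progenitor factor, had 495, 453 and 401 CPM in the 3 G392E-NS libraries and 335, 349 and 436 CPM in the 3 GFP libraries. G392E-NS 1 and 2 were above all GFP libraries, while G392E-NS 3 lay below GFP 3. Its log2 fold change was 0.27 (SE 0.14, 95% interval -0.04 to 0.58), and its adjusted p of 0.289 was the lowest of the 10 members (edgeR). As a ratio, the interval allows a Sox2 level in G392E-NS of 0.970 to 1.499 times that in GFP. Sox1, which is redundant with Sox2 in many progenitors, had 36.5, 36.7 and 57.0 CPM in G392E-NS and 48.6, 39.1 and 35.7 CPM in GFP. Only G392E-NS 3 was above the GFP range, and the log2 fold change was 0.08 (SE 0.20, interval -0.38 to 0.53, edgeR adjusted p 0.858). The SoxB2 gene Sox21 had 212, 280 and 207 CPM in G392E-NS and 190, 188 and 275 CPM in GFP. G392E-NS 2 and GFP 3 were high, the other 4 libraries lay between 188 and 212 CPM, and the log2 fold change was 0.10 (SE 0.18, interval -0.32 to 0.51, edgeR adjusted p 0.797).

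The SoxC factor Sox4, which activates neuronal genes together with Sox11, had 486, 364 and 730 CPM in G392E-NS and 368, 413 and 448 CPM in GFP. G392E-NS held both the highest and the lowest library, with G392E-NS 3 about 2.01 times G392E-NS 2, against 1.22 times between the outer GFP libraries. The log2 fold change was 0.36 (SE 0.23, interval -0.17 to 0.89, edgeR adjusted p 0.396). Without G392E-NS 3 it was 0.05, with an edgeR adjusted p of 0.874. Sox11 was lower in level and had 21.8, 13.49 and 40.2 CPM in G392E-NS and 18.3, 23.0 and 17.3 CPM in GFP. As for Sox4, G392E-NS 3 was the highest and G392E-NS 2 the lowest of all 6 libraries. The Sox11 log2 fold change of 0.36 (SE 0.35, interval -0.44 to 1.15, edgeR adjusted p 0.583) turned to -0.15 without G392E-NS 3 (edgeR adjusted p 0.744).

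Sox4 and Sox11 had the same highest and lowest library, as did Sox3, which is outside the 10 genes. The 250 bases upstream of each start site of Sox4 and Sox11 are shown, and their part in that pattern was not tested. They are from RefSeq on GRCm38.p6 and written 5′ to 3′ on the strand of the gene. Capitals mark CCAAT on either strand, a motif chosen for display after the counts of 5 motifs were seen.
Sox4: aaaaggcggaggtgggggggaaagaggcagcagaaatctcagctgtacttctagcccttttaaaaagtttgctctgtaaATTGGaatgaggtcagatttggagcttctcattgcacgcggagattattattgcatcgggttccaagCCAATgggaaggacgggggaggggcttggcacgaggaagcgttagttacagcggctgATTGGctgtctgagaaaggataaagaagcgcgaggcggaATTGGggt
Sox11: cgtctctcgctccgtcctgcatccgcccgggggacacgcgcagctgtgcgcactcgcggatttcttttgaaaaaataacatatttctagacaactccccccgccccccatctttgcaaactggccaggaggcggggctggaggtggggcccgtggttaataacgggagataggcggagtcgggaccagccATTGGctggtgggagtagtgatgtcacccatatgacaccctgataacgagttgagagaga
The Sox4 stretch lies at chr13:28953700-28953949 and the Sox11 stretch at chr12:27342719-27342968, both on the minus strand. CCAAT occurred 4 times upstream of Sox4 and 1 time upstream of Sox11. Of 32536 promoters of that length in the table, 33.8% held it at least once and 0.842% at least 4 times. ACAATG, a core Sox motif, and TATAAA occurred in neither stretch, while 10.5% and 12.3% of all promoters held them. GGGCGG occurred 2 times upstream of Sox11 and not upstream of Sox4, against 33.0% of all promoters with at least 1. CANNTG occurred 2 times upstream of Sox11 and 1 time upstream of Sox4, against 66.2% of all promoters, and all 5 motifs were searched on both strands. Promoters were listed for 8 of the 10 members, and Sox9 and Sox10 had none.

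The SoxD gene Sox6 had 814, 603 and 625 CPM in G392E-NS and 633, 650 and 718 CPM in GFP. G392E-NS 1 was the highest library and the others lay close together, with a log2 fold change of 0.03 (SE 0.14, interval -0.30 to 0.35, edgeR adjusted p 0.927). Sox5, its partner in the subfamily, had 72.2, 55.1 and 75.3 CPM in G392E-NS and 84.0, 81.9 and 62.8 CPM in GFP. GFP 1 and 2 were the highest libraries and G392E-NS 2 the lowest, and the log2 fold change was -0.18 (SE 0.15, interval -0.53 to 0.18, edgeR adjusted p 0.538).

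Among the SoxE factors, Sox9 had 529, 446 and 277 CPM in G392E-NS and 258, 216 and 435 CPM in GFP. Both groups were spread widely: G392E-NS 3 lay with GFP 1 and 2, and GFP 3 lay near G392E-NS 2. The log2 fold change of 0.46 was the highest of the 10 members, with an SE of 0.30, an interval of -0.23 to 1.15 and an edgeR adjusted p of 0.403. Leaving out 1 library moved it between 0.23 (without G392E-NS 1) and 0.82 (without GFP 3), the edgeR adjusted p of the second being 0.141. Sox8, which overlaps with Sox9 and Sox10 in function, had 499, 320 and 535 CPM in G392E-NS and 455, 558 and 482 CPM in GFP. G392E-NS 2 was the only library well below the others, and the log2 fold change was -0.14 (SE 0.19, interval -0.58 to 0.30, edgeR adjusted p 0.704). It was 0.06 without G392E-NS 2. Sox10, needed for oligodendrocytes and neural crest, was low, with 246, 104 and 46 counts in G392E-NS and 62, 114 and 216 counts in GFP. These are 10.2, 4.41 and 3.0 CPM in G392E-NS and 3.57, 5.72 and 9.24 CPM in GFP, a full overlap with the highest and the lowest library both in G392E-NS. The log2 fold change was -0.06 with an SE of 0.48, and the interval of -1.17 to 1.04 allows a Sox10 level in G392E-NS of 0.445 to 2.06 times that in GFP (edgeR adjusted p 0.955).

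Sox9 and Sox8 did not keep a fixed proportion. Sox9 per kb was 0.799, 1.05 and 0.391 times Sox8 per kb in the 3 G392E-NS libraries and 0.428, 0.292 and 0.680 times in the 3 GFP libraries. The ratio was highest in G392E-NS 2, where Sox8 was lowest, and lowest in GFP 2, where Sox9 was lowest and Sox8 highest.

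Some members share exon bases with another gene, and the strand setting of the counting is not given in the sources used here. Whether reads in the shared bases were counted for the member, for the antisense gene or for neither is thus not known. The levels of these members may be too high or too low. Sox8 shares 329 exon bases with the antisense gene 2810468N07Rik, whose 8494 counts over the 6 libraries were 14.6% of the Sox8 counts. That gene had a log2 fold change of -0.61 and an edgeR adjusted p of 0.0708. Sox21 shares 713 exon bases with the antisense Gm4675, whose counts were 2.77% of its own. Sox4 shares 2616 of its 4795 exon bases with the antisense Gm26735, which was at 0 counts, and Sox5 shares 1330 with Sox5os1, which had 2 counts. Such low counts do not show that the member kept its reads in the shared bases. The Sox4 level per kb, its place in the order and the SoxC sum carry this limit.

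Summed by subfamily over the members alone, the levels of the 2 groups overlapped in all 5 subfamilies. These sums have no test, since they are scores over chosen genes. They leave out Sox3, Sox12 and Sox13, so SoxB1 is here Sox1 with Sox2, and SoxC is Sox4 with Sox11. Per kb, Sox3 was above Sox1 and Sox12 above Sox11 in every library. The sums and ratios below are thus not those of whole subfamilies. SoxB1 summed to 248, 228 and 207 CPM per kb in G392E-NS and 173, 178 and 219 CPM per kb in GFP, the ratio of means being 1.199. SoxC summed to 104, 77.5 and 157 CPM per kb in G392E-NS and 79.0, 88.9 and 95.5 CPM per kb in GFP, a ratio of 1.29. G392E-NS 3 was high and G392E-NS 2 the lowest of the 6. SoxD averaged 50.6 ± 8.22 CPM per kb in G392E-NS and 50.3 ± 2.22 CPM per kb in GFP, and SoxE averaged 248 ± 40.1 in G392E-NS and 235 ± 26.6 in GFP (SD, n = 3 each). Sox21 is the only SoxB2 gene in these sums, with a ratio of 1.07.

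As shares of the summed level of the 10 genes, SoxB1 took 32.6 ± 3.27% in G392E-NS and 30.6 ± 0.810% in GFP. SoxE took 35.2 ± 2.72% in G392E-NS and 37.9 ± 0.881% in GFP, and SoxC 16.1 ± 5.45% in G392E-NS and 14.2 ± 0.636% in GFP. The ratio of SoxE to SoxC, over the members alone, was 2.80, 2.74 and 1.53 in G392E-NS and 2.66, 2.62 and 2.75 in GFP. Thus 5 of the 6 libraries lay close together and G392E-NS 3 was lower. Single genes gave a wider spread: Sox9 per kb was 1.26, 1.42 and 0.440 times Sox4 per kb in G392E-NS and 0.815, 0.606 and 1.13 times in GFP. Sox9 per kb was 48.8, 66.5 and 13.9 times Sox11 per kb in G392E-NS and 28.5, 18.8 and 50.4 times in GFP. In both of these ratios G392E-NS 3 was again the lowest, but the other 5 libraries were not alike. In these bulk libraries fewer cells of a type and less RNA per cell cannot be told apart.

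**Figure D3:**
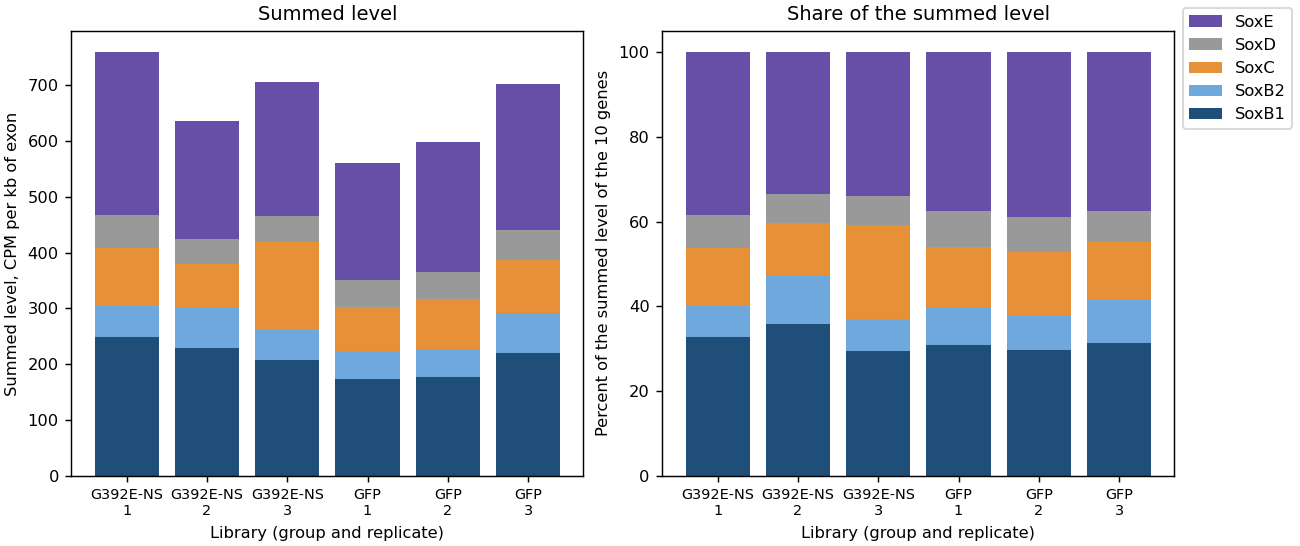
Stacked bars of the summed level of the 10 genes by Sox subfamily in each library, without Sox3, Sox12 and Sox13. Levels are in CPM per kb of exon (left) and as percent of the sum of the 10 genes (right). The 3 G392E-NS libraries stand left of the 3 GFP libraries. SoxB1 and SoxE are the largest parts in every library, and the SoxC sum of 157 CPM per kb in G392E-NS 3 is the highest of the 6.

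Spread within groups was measured on the log2 scale. The SD of log2 CPM between the 3 libraries was above the median of all genes tested in 9 of 10 members in G392E-NS and in 9 of 10 in GFP, those medians being 0.191 and 0.116. It was larger in G392E-NS than in GFP for 7 of the 10 members, as it was for 70.7% of all genes tested, so that count is at the background. The largest spread was that of Sox10, with an SD of 0.83 in G392E-NS and 0.63 in GFP on the log2 scale, and that of Sox11 was 0.77 in G392E-NS and 0.21 in GFP.

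The libraries differed in which members were extreme. G392E-NS 1 was the highest of the 6 libraries for Sox2, Sox6, Sox9 and Sox10. G392E-NS 2 was the lowest for 5 members, Sox4, Sox11, Sox5, Sox6 and Sox8, and the highest for Sox21. G392E-NS 3 was the highest for Sox1, Sox4 and Sox11 and the lowest for Sox10. GFP 1 was the highest for Sox5 and the lowest for Sox2. GFP 2 was the highest for Sox8 and the lowest for Sox21 and Sox9, and GFP 3 was the lowest for Sox1. Marker sums also differed between libraries. The 8 astrocyte markers summed to 4393, 8133 and 4989 CPM in G392E-NS and 2182, 1433 and 2288 CPM in GFP, the highest being G392E-NS 2. The 5 oligodendrocyte precursor markers in the table summed to 5001, 3281 and 5450 CPM in G392E-NS and 3577, 4192 and 4015 CPM in GFP, the lowest being G392E-NS 2. Their part in the member values was not tested.

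**Figure D4:**
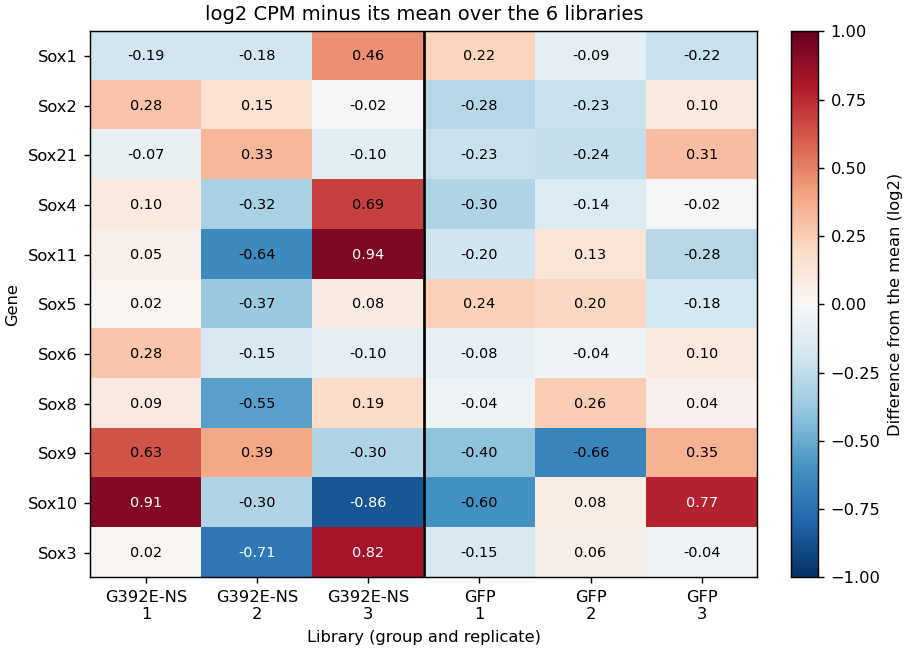
Deviation of log2 CPM from the mean of the 6 libraries for each Sox gene, as a colour scale with printed values, G392E-NS libraries left of GFP libraries. G392E-NS 3 stands out for Sox4, Sox11 and Sox3 on the high side and Sox10 on the low side, and G392E-NS 2 for Sox8, Sox11 and Sox3 on the low side. Values of like size occur in other libraries: Sox10 in G392E-NS 1 (0.91), GFP 3 (0.77) and GFP 1 (-0.60), and Sox9 in GFP 2 (-0.66) and G392E-NS 1 (0.63).

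Of the 10 other Sox genes in the table, 3 had enough counts to test and none was called. Sox3, the SoxB1 gene on the X chromosome, had 79.3, 47.8 and 138 CPM in G392E-NS and 70.7, 81.8 and 76.5 CPM in GFP. It was highest in G392E-NS 3 and lowest in G392E-NS 2, as Sox4 and Sox11 were, with a log2 fold change of 0.21 (SE 0.32, edgeR adjusted p 0.747). Whether the Xist difference bears on Sox3 was not tested. Sox12, the remaining SoxC gene, had a log2 fold change of 0.06, and Sox13, of the SoxD subfamily, 0.01. Sox14, Sox17 and Sry were at 0 counts in all libraries, and Sox7, Sox15, Sox18 and Sox30 had 4, 6, 15 and 4 counts over all 6.

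Genes that work with or downstream of the members were counted in lists, beside the background of 4.79% higher and 1.36% lower. These lists describe known roles and, like the members, were chosen with earlier results of these data known, so their counts and medians are descriptions. A gene of a list need not be controlled by a Sox factor in these cells. Of 15 Sox partner factors tested, 1 rose and 1 fell, with a median log2 fold change of 0.12. Nfia, the partner of Sox9 in gliogenesis, had 201, 184 and 189 CPM in G392E-NS and 286, 277 and 263 CPM in GFP. All G392E-NS libraries were below all GFP libraries, and Nfia fell by 0.52 on the log2 scale (SE 0.09, edgeR adjusted p 0.0153). The call was lost without GFP 1 (edgeR adjusted p 0.0892) or GFP 2 (0.0871). Nkx2-2, an oligodendrocyte lineage factor, was near the detection limit, with 2.91, 1.15 and 0.783 CPM in G392E-NS and 0.230, 0.100 and 0 CPM in GFP. It was called higher (edgeR adjusted p 0.0303), and the call was lost without any 1 of the GFP libraries, with adjusted p of 0.0732 to 0.111.

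Of 15 SoxB1 target and progenitor genes tested, 3 rose and 1 fell, with a median log2 fold change of 0.02. Prom1, a membrane protein of progenitors, had 6.78, 9.33 and 5.41 CPM in G392E-NS and 1.27, 1.56 and 0.941 CPM in GFP. The groups were well apart, the log2 fold change was 2.52 (SE 0.29, edgeR adjusted p 0.00303), and the call held with each library left out. Cdk6, a cell cycle kinase at a low level, rose by 1.75 on the log2 scale (edgeR adjusted p 0.0278), and Nr2e1, a nuclear receptor of neural stem cells, rose by 0.66 (edgeR adjusted p 0.0367). Nes, the intermediate filament nestin and a known Sox2 target, had 343, 210 and 283 CPM in G392E-NS and 496, 516 and 411 CPM in GFP. It fell by 0.77 (SE 0.18, edgeR adjusted p 0.0480), while Sox2 itself had a log2 fold change of 0.27. The calls of Cdk6, Nr2e1 and Nes were each lost without 5 of the 6 libraries in turn, the exceptions being G392E-NS 2 for Cdk6 and G392E-NS 1 for the other pair, with edgeR adjusted p up to 0.103, 0.150 and 0.1698. The Nes call was also lost with upper-quartile scaling (edgeR adjusted p 0.0509) and with a filter of 1 CPM in 3 libraries (0.0510).

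Of 11 SoxC target and immature neuron genes tested, 2 fell and none rose, with a median log2 fold change of -0.19. Neurod1, a neuronal differentiation factor, had 0.624, 0.806 and 0.457 CPM in G392E-NS and 3.40, 5.37 and 3.21 CPM in GFP. It fell by 2.63 (SE 0.32, edgeR adjusted p 0.00398), and the call held with each library left out. Elavl4, a neuronal RNA-binding protein, fell by 0.70 (SE 0.13, edgeR adjusted p 0.0228), with 81.3, 61.9 and 57.3 CPM in G392E-NS and 108, 107 and 111 CPM in GFP. That call was lost without any library but G392E-NS 1, with edgeR adjusted p up to 0.0929. Tubb3, the best known SoxC target, was not called and had 134 ± 8.49 CPM in G392E-NS and 106 ± 34.1 CPM in GFP (SD, n = 3 each).

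Of 11 genes tested that Sox9 and NFIA are known to act on in astroglia or that mark astroglia, 4 rose and none fell, with a median log2 fold change of 1.10. Fgfr3, a growth factor receptor of astroglia, had 331, 416 and 408 CPM in G392E-NS and 157, 116 and 117 CPM in GFP. Its log2 fold change was 1.56 (SE 0.15, edgeR adjusted p 0.00139), and the call held with each library left out. Slc1a2, the glutamate transporter of astrocytes, rose by 1.32 (SE 0.22, edgeR adjusted p 0.0144), with 2104, 3137 and 2001 CPM in G392E-NS and 1166, 789 and 945 CPM in GFP. Mmd2, a gene induced by Sox9 with NFIA, had 401, 948 and 453 CPM in G392E-NS and 113, 56.7 and 181 CPM in GFP, a log2 fold change of 2.36 (edgeR adjusted p 0.0257). Aldh1l1, a folate enzyme of astrocytes, rose by 1.11 (edgeR adjusted p 0.0302). The log2 fold change was below 0 in 4 of the 11, none of them called: Apcdd1 at -0.27 and Zcchc24 at -0.11, which like Mmd2 are induced by Sox9 with NFIA, Aqp4 at -0.14 and Id3 at -0.35. The calls of Slc1a2 (without GFP 2 or 3, edgeR adjusted p 0.0638 and 0.0517), Mmd2 (without GFP 1 or 2, 0.113 and 0.0560) and Aldh1l1 (without G392E-NS 3 or any GFP library, 0.0594 to 0.126) were lost, the last also in limma-voom (0.0523). This list shares 6 genes with the 8 astrocyte markers whose sums are given above, so they are not separate evidence. The mural, fibroblast and ependymal marker sums given above were also higher in G392E-NS, and their part in this list was not tested.

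Of 8 oligodendrocyte and Schwann genes linked to Sox10 that were tested, 2 rose and none fell, with a median log2 fold change of 0.37. Pdgfra, the receptor that marks oligodendrocyte precursors, had 1055, 626 and 573 CPM in G392E-NS and 312, 292 and 436 CPM in GFP, a log2 fold change of 1.12 (edgeR adjusted p 0.0435). Mog, a myelin protein, was at 1.08, 1.4 and 0.587 CPM in G392E-NS and 0.230, 0.301 and 0.128 CPM in GFP (edgeR adjusted p 0.0295). Both calls were lost without G392E-NS 2 or any 1 GFP library, with edgeR adjusted p of 0.0512 to 0.172, and that of Pdgfra also with total-count scaling (0.0540). Sox10 itself overlapped fully between the groups. Of 13 cartilage genes that Sox5, Sox6 and Sox9 control in the skeleton, 5 could be tested and none was called, Col9a1 having the smallest p (log2 fold change -0.80, edgeR adjusted p 0.309). The other 8 were under 1 CPM in every library, with Matn3 at 0.

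**Figure D5:**
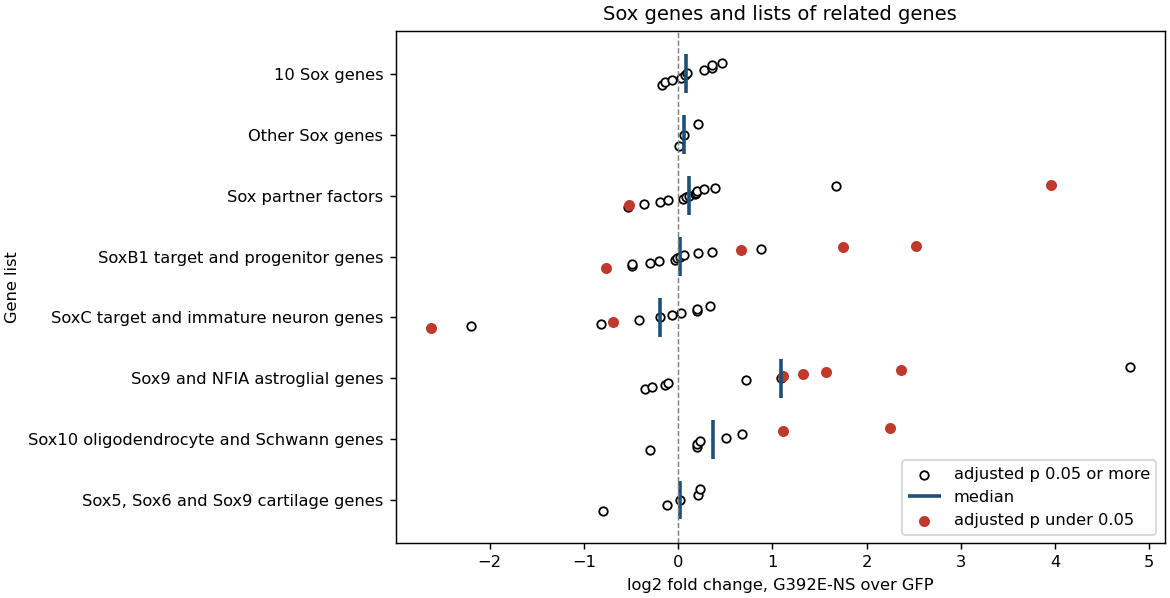
Log2 fold change of G392E-NS over GFP for each tested gene of the Sox members, the other Sox genes and the related lists, with filled points for adjusted p under 0.05 and vertical lines for medians. The Sox9 and NFIA astroglial list has a median of 1.10, while the 10 Sox members have a median of 0.09 and no called gene.

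The genes with the pattern nearest to a member over the 6 libraries were taken by the root-mean-square difference of centred log2 CPM, for the highest member per kb of SoxB1, SoxC and SoxE. For Sox2 they were Cyfip2 (0.0491), Pspc1 (0.0529) and Fam19a2 (0.0536). For Sox4 they were Imp3 (0.0797), Rpl13 (0.0803) and H2afz (0.0842), which were thus farther from it. For Sox8 they were ENSMUSG00000078306 (0.0355), which averaged only 0.421 CPM, Unc79 (0.0477) and Plxna4 (0.0498).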

How the data were processed

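The authors deposited raw counts (integers for each Ensembl gene in each of 6 libraries), not normalised. Tools named in the submitters' processing notes, with no role for each, are HTSeq 0.6.1, DESeq2 1.4.5, TopHat2 2.0.12 and R 3.2.2, and the build is GRCm38. Annotation release and strand setting: not given in the sources used here. Columns were matched to samples by name, and gene identifiers to symbols, exons and positions by GENCODE M21, with 37607 of 39179 genes matched. Genes were filtered with filterByExpr of edgeR 4.0.16 (R 4.3.3), leaving 13775 with 99.9% of counts, scaled by TMM, and tested with the quasi-likelihood F test, without covariates, adjusted over all genes tested by Benjamini-Hochberg at 0.05. Log2 fold changes are G392E-NS over GFP. SE is the fold change over the root of F, and 95% intervals use the degrees of freedom of the fit. CPM use TMM-scaled totals. Fits were tested on simulated data. No pair of replicates agreed within sampling noise. Alternatives were other scalings, DESeq2 1.42.0, limma-voom (limma 3.58.1), other filters, a replicate block, removal of length and GC trends, and leaving out each library.

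The members and lists were chosen with earlier results of these data known. Named are all Sox genes and up to 4 called genes by smallest p in each list (else the smallest p). Marker sums, the 3 nearest patterns, Xist and Serpini1 are named as well. Tubb3, Twist1, Rsph1, Foxj1, Map2, Rbfox3, Snap25, Slc1a3 and Fabp7 were named after their values were seen. So were the astroglial genes below 0, marker genes under 1 CPM and the overlapping genes. HMG box identity had been planned on proteins and was computed on coding bases.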

Additional observations from a re-analysis of the deposited data

How the results depend on the processing

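In all 16 alternatives, 0 of the 10 Sox genes were called, and the lowest of the 160 adjusted p was 0.141, for Sox9 without GFP 3. In 16 of the 160 the fold change had the other sign, with no call, and the cause was not tested. With length and GC trends removed, log2 fold changes were -0.057 for Sox1 and -0.072 for Sox21, and with the replicate block added -0.070 for Sox1 and -0.059 for Sox21. With total-count scaling Sox6 was at -0.029. Leaving out each library in turn gave -0.17 to 0.21 for Sox1, -0.052 to 0.30 for Sox21, -0.15 to 0.66 for Sox11, -0.14 to 0.12 for Sox6, -0.28 to 0.058 for Sox8 and -0.75 to 0.35 for Sox10. The count of all genes called, 847, was 1450 in DESeq2, 1579 with no low-count filter, where 23188 genes were tested, and 242 to 1373 with a library left out, lowest without GFP 1 and highest without G392E-NS 1. With length and GC trends removed, 1153 were called and 56.5% of them were higher, against 77.9%.

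Replicate numbers do not pair the samples: the same-number correlations of deviations from group means were 0.034, -0.383 and -0.255. Across numbers, the correlation was 0.347 for G392E-NS 3 with GFP 2 and 0.306 for G392E-NS 2 with GFP 3. The remaining pairs lay between -0.06 and 0.044. Deviations from a group mean sum to 0 within the group, so these correlations are tied to each other and are not separate evidence. Whether the correlated libraries share anything was not tested. With the replicate block 267 genes were called, 257 with the length and GC terms as well, and in both 0 members. Among list genes, the calls of Fgfr3, Neurod1 and Prom1 were kept in all 16 alternatives. The block ended the calls of Nfia, Slc1a2, Mmd2, Aldh1l1, Cdk6, Nr2e1, Nes, Elavl4 and Pdgfra, with adjusted p of 0.0665 to 0.125. The 4 astroglial calls became 7 with no low-count filter, 1 with the block or without GFP 2, and 2 without GFP 1 or GFP 3. The 2 immature neuron calls became 4 with no low-count filter and 1 with the block or without G392E-NS 3, GFP 1 or GFP 2. Sox10 had the fewest counts of the members, 46 to 246 in a library.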
